A study of Mus musculus with 4 samples.

Results

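Excitation-contraction coupling at the skeletal muscle triad was described through 10 genes, Cacna1s, Cacnb1, Cacng1, Stac3, Ryr1, Trdn, Asph, Jph1, Jph2 and Cav3, in quadriceps muscle of wild-type (WT) and NF90-NF45 dbTg mice. The dbTg (double transgenic) mice carry transgenes for the double-stranded RNA-binding protein NF90 and its partner NF45. The 10 symbols were given as a list, and each gene was taken as its brightest probe set among those paired with that 1 symbol, out of 22180 genes named in this way. All 10 were found on the array, and all 10 passed the filter on low values that left 13308 genes for testing.

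Each of the 4 mice gave 1 whole-transcript array of total RNA. The WT group held a male aged 17 to 18 weeks (WT 1) and a female aged 16 weeks (WT 2). The dbTg group held a male (dbTg 1) and a female (dbTg 2), both aged 16 weeks. The groups therefore share the sexes, and the male pair differs in age. The labels used here name no strain, no promoter for the transgenes and no founder line. Ilf2, which encodes NF45, read 5.03 and 5.04 in WT and 10.36 and 10.16 in dbTg, and so rose 37.4-fold (limma adjusted p = 7.17e-05). Values are RMA levels on the log2 scale, so that 1 unit is a 2-fold difference. A level of 1 probe set cannot be read against that of another as an amount of RNA.

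Skeletal muscle fibres turn an electrical signal into calcium release at the triad, where an infolding of the surface membrane, the T-tubule, lies between paired sacs of the sarcoplasmic reticulum. The dihydropyridine receptor in the T-tubule senses the voltage and opens the ryanodine receptor of the reticulum by mechanical contact. Junctophilins hold the membranes together, and triadin and junctin tie the release channel to the calcium store. Loss of several of these proteins causes weakness or myopathy, and disordered triads are known from centronuclear myopathies.

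No member passed the adjusted threshold of 0.05 in limma, in either direction. Over all tested genes 2.01% were higher and 0.203% lower by that rule. The members and the gene lists were chosen with earlier results of these data known. Counts of them set beside all tested genes are therefore descriptions and not independent tests. Before adjustment, 4 of the 10 members had a p under 0.05 and were lower in dbTg (Ryr1, Cacna1s, Stac3 and Jph1) and 1 such member was higher (Asph), where 4.64% of all tested genes were lower and 14.0% higher. These 5 became 1 without dbTg replicate 2, the dbTg female, and 3 without WT replicate 1. Ryr1, the release channel itself, had the largest negative difference of the 10, with WT 1.84-fold higher. The median difference over the members was -0.29, beside 0.09 over all tested genes and 0.05 over the 4901 tested genes whose WT mean was at or above that of the dimmest member. The members' median was 0.035 without dbTg replicate 2 and between -0.38 and -0.26 when another array was left out.

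The median over all tested genes depended on the scaling and the filter: it was -0.0015 after quantile normalization, 0.0066 with the arrays centred on muscle fibre genes and -0.015 with no intensity filter. The members' median in those fits was -0.32, -0.37 and -0.29. Asph had an unadjusted p above 0.05 in the first and the second of them. The background at an unadjusted limma p under 0.05 moved too. In the deposited scaling 617 of the 13308 tested genes were lower and 1866 higher by that rule. After quantile normalization these were 940 and 1383, and with the fibre centring 815 and 1363, while 4 members were lower in each.

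Differences were negative for 6 members, against 39.5% of all tested genes. The members' count was also 6 in those 3 fits, and the share of all genes below 0 was taken in the deposited scaling alone. For 5 members both dbTg arrays lay below both WT arrays (Ryr1, Cacna1s, Stac3, Jph1 and Trdn), and for 2 both lay above (Asph and Cacnb1). Over all tested genes 16.3% lay wholly below and 33.7% wholly above. Among the 4901 genes at or above the dimmest member's WT mean, 22.3% lay wholly below, 31.8% wholly above, and 8.49% were lower with an unadjusted p under 0.05. The groups overlapped for Cacng1, Jph2 and Cav3. With 2 arrays against 2, an exact permutation test of a single gene cannot give a p-value below 0.333.

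**Figure D1:**
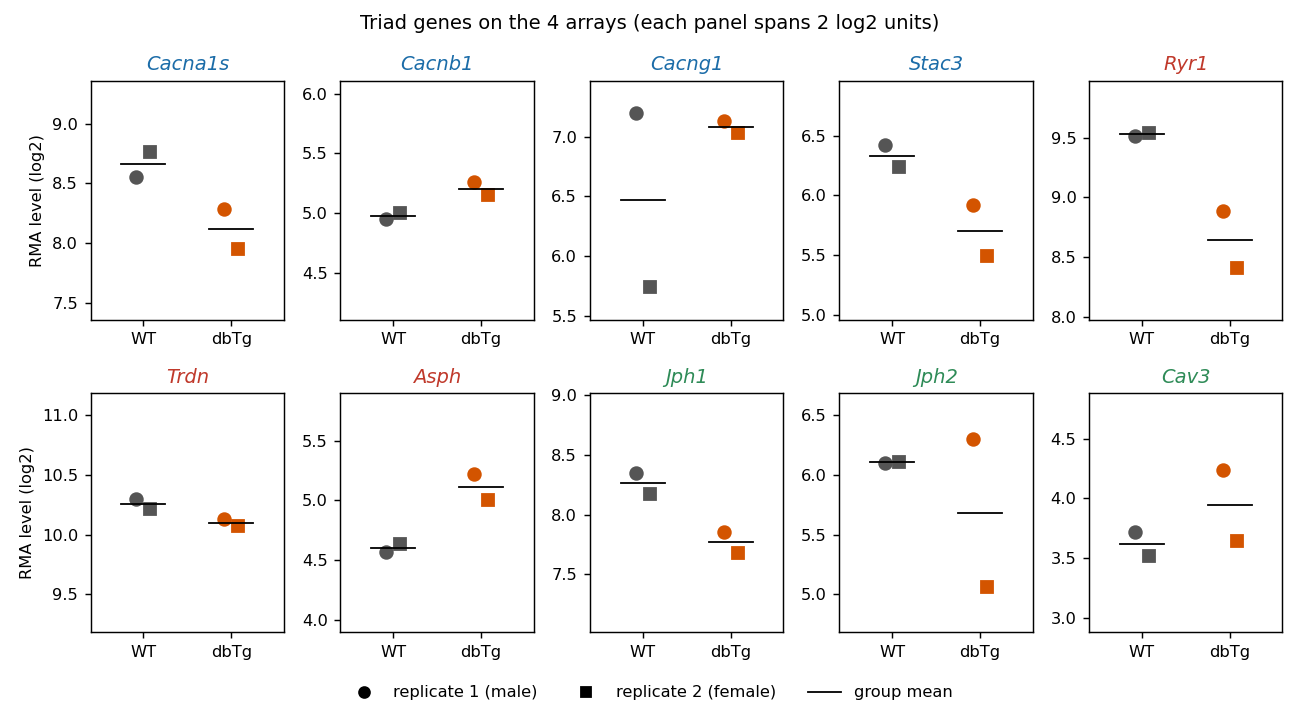
RMA level (log2) of each of the 10 genes on the 4 arrays, with WT in grey, dbTg in orange, circles for the males, squares for the females and lines for the group means; each panel spans 2 log2 units around its own values. Both dbTg points lie below both WT points for Cacna1s, Stac3, Ryr1, Trdn and Jph1, and the wide spreads of Cacng1 in WT and Jph2 in dbTg each come from the female.

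The release channel read lower in both dbTg mice. Ryr1 encodes the skeletal ryanodine receptor, through which calcium leaves the sarcoplasmic reticulum. It read 9.51 and 9.54 on the WT arrays and 8.89 and 8.41 on the dbTg arrays. The WT arrays lay close together, both dbTg arrays lay below them, and the dbTg female was the lowest. The means were 9.53 ± 0.02 (SD, n = 2) and 8.65 ± 0.34 (SD, n = 2). The log2 difference was -0.88 (SE 0.18, 95% interval -1.30 to -0.46, limma adjusted p = 0.0597), so the threshold was narrowly missed. Over 14 other settings the difference stayed negative, from -1.12 to -0.64, with an adjusted p between 0.028 and 0.324. It passed the threshold in 2 of them, with the arrays centred on muscle fibre genes (adjusted p = 0.028) and with the intensity filter at the 60th percentile (adjusted p = 0.0483). A dimmer probe set of Ryr1 read 2.61 and 2.47 in WT and 2.08 and 2.12 in dbTg, which is also lower in dbTg, by -0.44.

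Trdn and Asph, whose products sit beside the release channel, did not share that size of difference. Trdn encodes triadin, which anchors the calcium-binding protein calsequestrin near the channel. Its levels were 10.30 and 10.22 in WT and 10.13 and 10.07 in dbTg. The groups did not overlap, but the gap was small, at -0.16 (SE 0.11, interval -0.42 to 0.10, adjusted p = 0.498). Asph is the shared gene of junctin, junctate and the enzyme aspartyl beta-hydroxylase, and the gene-level value does not tell these products apart. It read 4.57 and 4.63 in WT and 5.22 and 5.0 in dbTg. Here both dbTg arrays were the higher ones, by 0.51 (SE 0.18, interval 0.07 to 0.95, adjusted p = 0.203). Its dimmer probe set read 0.92 and 1.59 in WT against 2.19 and 2.39 in dbTg.

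The voltage sensor genes went in both directions. Cacna1s encodes the pore-forming and voltage-sensing alpha-1 subunit of the dihydropyridine receptor. It read 8.56 and 8.76 in WT and 8.29 and 7.95 in dbTg, a log2 difference of -0.54 (SE 0.16, interval -0.93 to -0.15, adjusted p = 0.148). Both dbTg arrays lay below WT, and WT was 1.45-fold higher on average. Stac3, an adaptor that the receptor needs to couple to the release channel, read 6.42 and 6.24 in WT and 5.92 and 5.49 in dbTg. The dbTg female was again the lowest array, and the log2 difference was -0.63 (SE 0.20, interval -1.10 to -0.15, adjusted p = 0.163).

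Neither auxiliary subunit among the members read lower on average. Cacna2d1, an auxiliary subunit outside the members, differed by -0.36. Cacnb1, the intracellular beta-1 subunit that carries the channel to the membrane, read 4.95 and 5.0 in WT and 5.26 and 5.15 in dbTg. The dbTg arrays were slightly higher, by 0.23 (SE 0.17, interval -0.18 to 0.64, adjusted p = 0.536). Cacng1, the transmembrane gamma-1 subunit of skeletal muscle, read 7.20 and 5.74 in WT and 7.14 and 7.03 in dbTg. WT 2, the female, stood 1.30 below the dbTg female, while the other 3 arrays lay close together. The log2 difference of Cacng1 was 0.62 (SE 0.42, interval -0.39 to 1.63, adjusted p = 0.492). It rested on WT 2: it was 1.35 and past the threshold without WT replicate 1 (adjusted p = 0.00716), and -0.11 without WT replicate 2 (adjusted p = 0.798). In each of these fits WT is 1 array, assumed to vary like the dbTg pair, whose SD was 0.07.

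The junctophilins bridge the T-tubule and the reticulum. Jph1, the junctophilin of skeletal muscle, read 8.35 and 8.17 in WT and 7.85 and 7.68 in dbTg. The male and the female pair were equally far apart, at -0.49 each, and the groups did not overlap (difference -0.49, SE 0.15, interval -0.84 to -0.15, adjusted p = 0.138). Jph2, which is known from heart as well as skeletal muscle, read 6.10 and 6.11 in WT and 6.30 and 5.06 in dbTg. The dbTg male lay above both WT arrays and the dbTg female about 1 log2 unit below them. Its difference of -0.42 (SE 0.37, interval -1.31 to 0.46, adjusted p = 0.603) became 0.20 without dbTg replicate 2 and -1.04 without dbTg replicate 1. Cav3, the caveolin of muscle that takes part in forming T-tubules and caveolae, read 3.72 and 3.52 in WT and 4.24 and 3.65 in dbTg. The groups overlapped, with a difference of 0.32 (SE 0.26, interval -0.29 to 0.94, adjusted p = 0.561). The difference of Cav3 was 0.028 without dbTg replicate 1 and 0.62 without dbTg replicate 2.

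**Figure D2:**
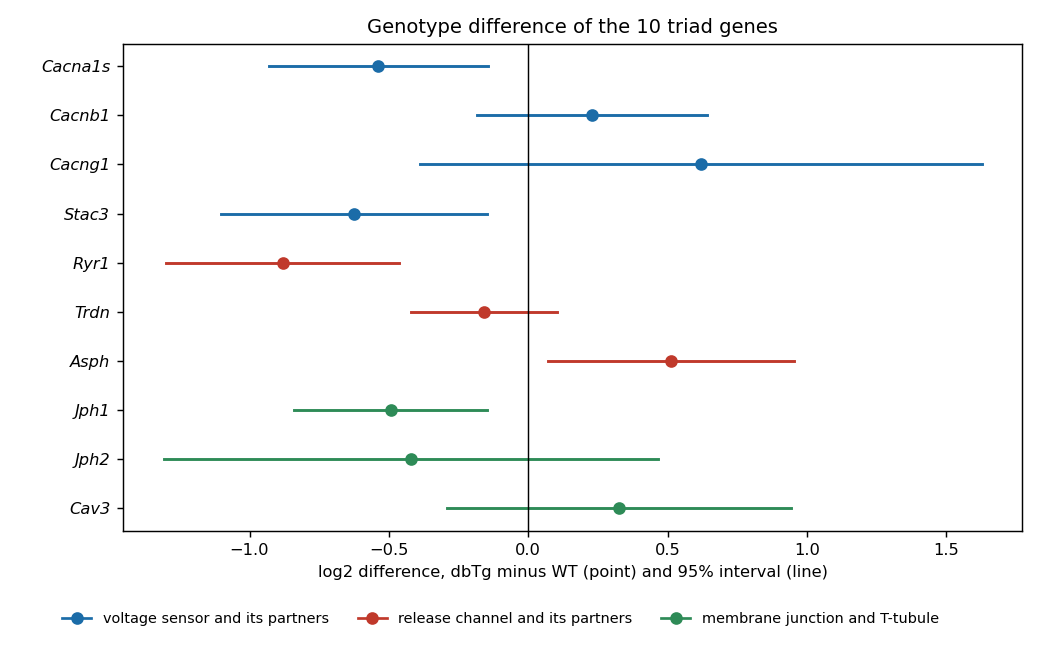
Log2 difference of each gene, dbTg minus WT (points), with the 95% interval from limma's moderated spread over 2 arrays against 2 (lines), coloured by role. The intervals of Cacna1s, Stac3, Ryr1 and Jph1 lie below 0, that of Asph above it, and Cacng1 and Jph2 have the widest intervals.

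Of the 6 genes with negative differences, 4 stood further apart between the females than between the males. With 1 mouse of each sex in each group, a test of whether the sexes differ has 0 residual degrees of freedom, so these are values without a test. Ryr1 was at -0.62 in the male pair and -1.14 in the female pair. Cacna1s was at -0.27 and -0.81, and Stac3 at -0.50 and -0.75, in the same order. Trdn was at -0.17 and -0.15. For Asph (0.65 and 0.37), Cacnb1 (0.31 and 0.15) and Cav3 (0.52 and 0.13) the male pair had the larger positive difference. The median over the members was -0.11 for the males and -0.32 for the females. Over all tested genes these medians were 0.10 and 0.09, and over the muscle fibre markers -0.02 and -0.09. How many of all tested genes stood further apart between the females was not counted.

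**Figure D3:**
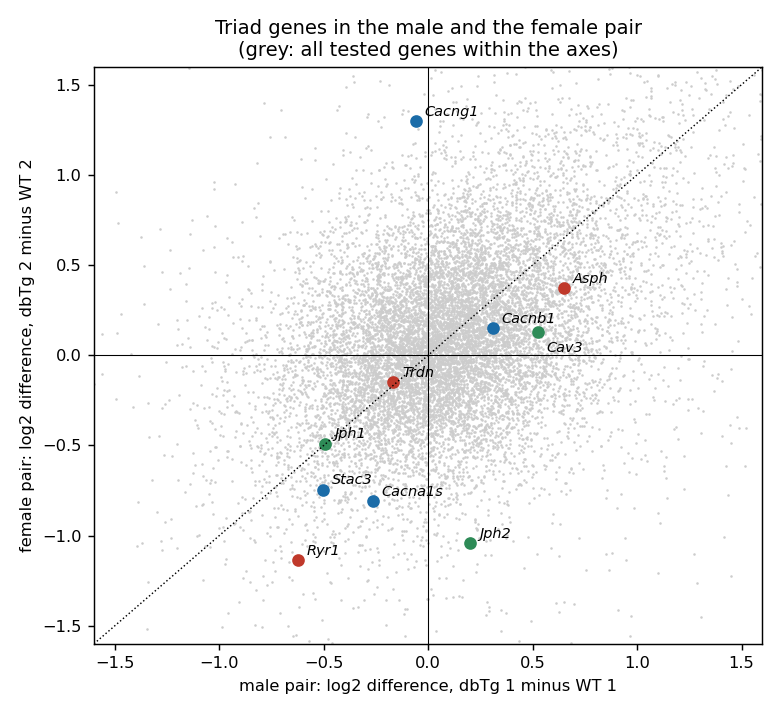
Log2 difference in the male pair (dbTg 1 minus WT 1, horizontal) against that in the female pair (dbTg 2 minus WT 2, vertical) for the 10 genes (coloured by role) and all tested genes within the axes (grey); the dotted line marks equal differences. Ryr1, Cacna1s, Stac3, Jph1 and Trdn are negative in both pairs, and Cacng1 and Jph2 have opposite signs.

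The members with negative differences tended to have the brighter probe sets. Their WT means ran from 6.10 (Jph2) to 10.26 (Trdn), and those of the members with positive differences from 3.62 (Cav3) to 6.47 (Cacng1). The background moved the same way with the WT level: 44.6% of the tested genes at or above the dimmest member's WT mean had negative differences, and 36.5% of those below it. What part the probe brightness has in the members' order was not tested.

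**Figure D4:**
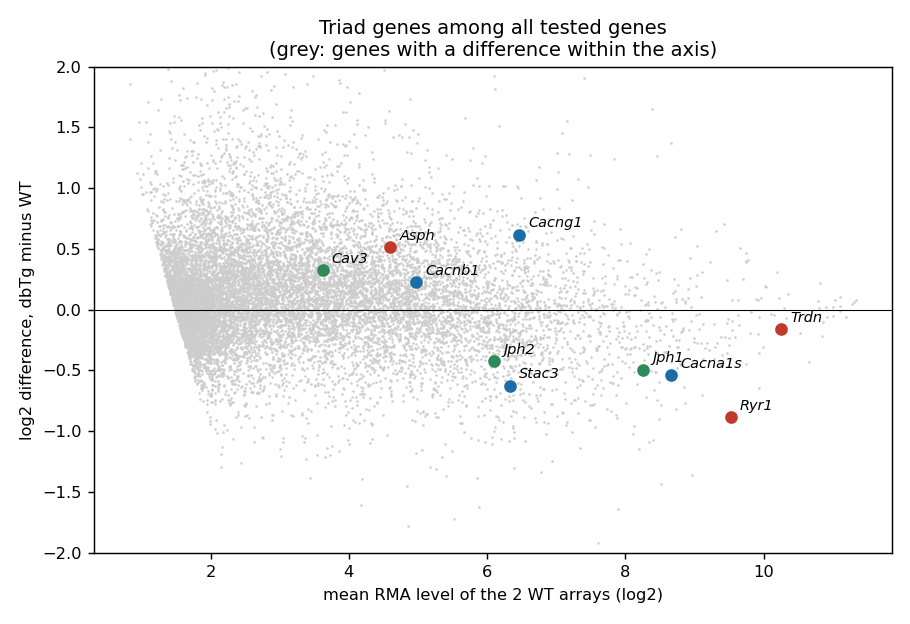
Log2 difference, dbTg minus WT, against the mean RMA level of the 2 WT arrays for the 10 genes (coloured by role) and all tested genes with a difference within the axis (grey). The 4 genes with positive differences have WT means between 3.62 and 6.47, and Ryr1 is the lowest of the 10 at a WT mean of 9.53.

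The stretch before the gene start is shown for Ryr1 and Cacna1s, the release channel and the voltage sensor with lower values in dbTg. It is also shown for Cav3, whose average difference was positive but whose groups overlapped. The sequences are from RefSeq (build GRCm38.p6), read 5′ to 3′ on the strand of the gene, and hold the 250 bases before the start. Capitals mark the hexamer CAGCTG, an E-box of the kind that myogenic factors are known to bind. Ryr1 lies at chr7:29125152-29125401 on the minus strand, Cacna1s at chr1:136052561-136052810 on the plus strand and Cav3 at chr6:112459255-112459504 on the plus strand.
Ryr1: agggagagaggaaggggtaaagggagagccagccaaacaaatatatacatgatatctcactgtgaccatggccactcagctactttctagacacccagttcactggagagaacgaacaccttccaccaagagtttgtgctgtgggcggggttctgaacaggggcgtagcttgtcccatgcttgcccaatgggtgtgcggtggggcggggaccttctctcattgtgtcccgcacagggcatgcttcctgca
Cacna1s: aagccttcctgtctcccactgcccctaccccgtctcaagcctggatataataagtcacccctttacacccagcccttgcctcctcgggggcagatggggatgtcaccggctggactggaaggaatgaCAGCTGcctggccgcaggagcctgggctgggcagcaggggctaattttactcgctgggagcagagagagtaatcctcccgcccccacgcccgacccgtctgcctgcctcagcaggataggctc
Cav3: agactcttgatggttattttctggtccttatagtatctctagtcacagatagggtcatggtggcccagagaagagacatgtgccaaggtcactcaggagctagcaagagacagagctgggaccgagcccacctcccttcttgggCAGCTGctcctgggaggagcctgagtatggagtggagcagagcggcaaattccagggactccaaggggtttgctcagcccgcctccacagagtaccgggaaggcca

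Of the 10 genes, 5 had an entry in the promoter table, with 7 windows in all: Ryr1, Cacna1s, Cacnb1, Jph2 and Cav3. CAGCTG reads the same on both strands. It was found in 4 of the 7 windows, 123 bases before the start of Cacna1s, 106 before that of Cav3, and 29 and 9 before the alternative starts of Jph2, whose windows overlap and hold the same copy. In 13.0% of all 32851 windows of this length it occurred at least once. CACCTG, searched on both strands, was in 0 of the 7 windows and in 17.2% of all windows. The MEF2 site was in 0 of 7 and 2.92% of all, and the CArG box in 0 of 7 and 1.47% of all. The genes with the hexamer had negative (Cacna1s, Jph2) and positive (Cav3) differences, and the windows of Ryr1 and Cacnb1 did not hold it. For Jph2 and Cav3 the groups overlapped, so their directions are uncertain. A match describes the letters only and shows no binding.

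Further components of the triad showed 0 of 13 tested genes past the threshold, of 18 listed. Without adjustment, 4 had a p under 0.05 and a negative difference and 1 a positive one, and the median difference was -0.12. These are 30.8% and 7.69% of the list, beside 4.64% and 14.0% of all tested genes in the deposited scaling. This list, too, was chosen with earlier results of these data known. Mrln, the micropeptide myoregulin that inhibits the calcium pump, read 5.69 and 5.35 in WT and 4.41 and 3.19 in dbTg. Its difference of -1.73 (SE 0.39, adjusted p = 0.079) was larger than that of any of the 10 genes. Over 14 other settings its adjusted p ran from 0.0334 to 0.356 and passed the threshold in 2, without WT replicate 2 and with the arrays centred on muscle fibre genes. Without dbTg replicate 2 the difference of Mrln was -1.12 (adjusted p = 0.356). Homer1, a scaffold that binds ryanodine receptors, read 6.04 and 5.60 in WT and 5.30 and 5.17 in dbTg (difference -0.59, adjusted p = 0.19). Cacna2d1, the alpha-2-delta subunit of the dihydropyridine receptor, differed by -0.36 (adjusted p = 0.208), the same direction as Cacna1s.

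The calsequestrins, which store calcium in the reticulum, did not read lower. Casq1, the fast-fibre form, differed by 0.13 (interval -0.15 to 0.40, adjusted p = 0.62). Casq2, the form of heart and slow fibres, read 3.78 and 6.0 in WT and 6.45 and 6.80 in dbTg (difference 1.73, SE 0.63, adjusted p = 0.207). WT 1 stood well below the other 3 arrays. Slow-fibre markers were also low on WT 1, with a median level of 2.28 over 6 genes, beside 4.89 on WT 2, 2.38 on dbTg 1 and 4.36 on dbTg 2. They were thus low in both males and high in both females, while Casq2 was low in the WT male alone. The part of slow fibres in these values was not tested.

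T-tubule and caveola genes held the sole call of these lists. Cavin4, a muscle protein of caveolae that works with Cav3, read 6.71 and 6.69 in WT and 7.56 and 7.45 in dbTg. It rose by 0.80 on the log2 scale (SE 0.14, 1.75-fold, adjusted p = 0.0461) and was higher in both dbTg arrays. Over 14 other settings the call held in 7, with an adjusted p from 0.037 to 0.335. Leaving out the dbTg male gave an adjusted p of 0.284 and leaving out the dbTg female one of 0.335, with differences of 0.75 and 0.86. With the replicate number, which is also the sex, as a block, the adjusted p of Cavin4 was 0.0971. Of 14 tested genes, 1 rose and 0 fell. Before adjustment 3 had a p under 0.05 with a positive and 1 with a negative difference, and the median was 0.11. These are 21.4% and 7.14% of the list, beside 14.0% and 4.64% of all tested genes in the deposited scaling. Myof, the membrane repair protein myoferlin, differed by 1.14 (adjusted p = 0.0703), and Speg, a kinase of the triad, by -0.60 (adjusted p = 0.171).

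Bin1, Mtm1 and Dnm2, classic genes of centronuclear myopathy that act on T-tubule membranes, had small average differences and intervals that span 0. Those intervals reach up to 0.76, so larger differences are not excluded. Bin1, which curves the T-tubule membrane, read 8.76 and 8.27 in WT and 8.74 and 8.39 in dbTg (difference 0.05, interval -0.43 to 0.54, adjusted p = 0.924). Mtm1, the lipid phosphatase myotubularin, differed by 0.16 (interval -0.36 to 0.67, adjusted p = 0.753). Dnm2, the membrane-cutting dynamin 2, differed by 0.21 (interval -0.33 to 0.76). All of these overlapped between the groups, and 3 of the 3 turned sign under at least 1 other setting. Leaving out 1 array leaves its group with a single sex, so sex and genotype are then not balanced. Within the sexes, Bin1 was at -0.02 in the male pair and 0.13 in the female pair.

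**Figure D5:**
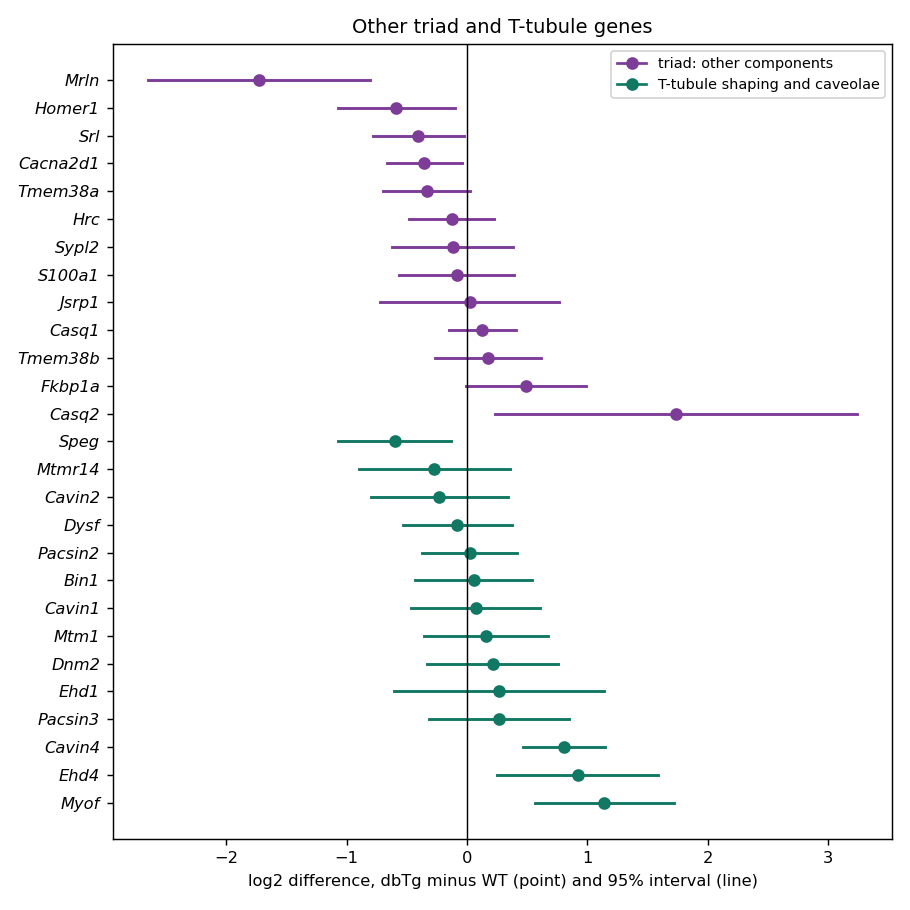
Log2 difference, dbTg minus WT (points), with 95% intervals from limma (lines), for the 13 further triad components and the 14 T-tubule and caveola genes that were tested. Cavin4 is the sole gene past the adjusted threshold, and Mrln and Casq2 have the largest differences in either direction.

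Paralogues of the members, listed as genes of other tissues, were in part dim. Not all were: Cav1, Cav2, Cacng6 and Cacng7 had WT means from 4.50 to 4.97. Of 14 such genes named on the array, 8 lay under the intensity filter, among them Ryr2 (mean over the 4 arrays 1.06), Ryr3 (1.03), Jph3 (1.11), Jph4 (1.16), Stac (0.94) and Stac2 (1.26). Of the 6 tested, 0 passed the threshold, and Cacng7 alone had an unadjusted p under 0.05. All 6 had negative differences (Cav2 at -0.0006), with a median of -0.26 beside the members' -0.29. For 5 of them (83.3%) both dbTg arrays lay below both WT arrays, beside 16.3% of all tested genes. Cacng7, a gamma subunit, read 5.47 and 4.48 in WT and 4.19 and 3.40 in dbTg (difference -1.18, adjusted p = 0.173). Cacng6, another gamma subunit, differed by -0.67 (adjusted p = 0.273). Both differences were negative in all 14 other settings, but their size depended on which WT array was kept. Without WT replicate 1, Cacng7 was at -0.69 (adjusted p = 0.27) and Cacng6 at -0.30 (adjusted p = 0.529). Without WT replicate 2 they were at -1.67 (adjusted p = 0.0242) and -1.03 (adjusted p = 0.0455), where WT is 1 array and the dbTg pair alone gives the residual spread.

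Store-operated calcium entry, which refills the reticulum through STIM sensors and ORAI channels, had 0 of 5 tested genes past the threshold and 0 with an unadjusted p under 0.05. Stim1 differed by -0.25 (interval -0.65 to 0.14, adjusted p = 0.467). Stim2 differed by -0.29 (interval -0.69 to 0.10, adjusted p = 0.402).

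The markers of the labelled tissue were present. All 18 muscle fibre markers read 8.03 or more on every array. The 3 tested heart markers read between 1.39 and 2.20, and Myh6, the heart myosin, lay under the filter at a mean of 1.02. Over all tested genes 267 rose and 27 fell. With each array centred on the muscle fibre list, 256 rose and 68 fell. These 294 calls became 4 when either dbTg array was left out, 766 and 735 when WT replicate 1 or 2 was left out, 65 in the fit blocked on replicate number and 127 after quantile normalization.

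Marker RNA of macrophages and leukocytes, of adipocytes and of embryonic or regenerating fibres held genes past the threshold, all higher in dbTg. Of 12 macrophage and leukocyte markers, 9 rose and 12 had positive differences; their summed linear level was 135 and 116.5 in WT and 641 and 510 in dbTg. Fibroblast markers had 0 of 6 past the threshold and 6 positive differences, with sums of 882 and 771 in WT and 1126 and 1221 in dbTg. Of 6 markers of embryonic or regenerating fibres 4 rose, with sums of 48.0 and 37.6 in WT and 252 and 251 in dbTg. Adipocyte markers had 2 of 4 past the threshold, both higher, with sums of 22.6 and 23.8 in WT and 67.4 and 49.7 in dbTg. Endothelial markers had 0 of 5 past the threshold, with 5 negative differences, a median of -0.47 and sums of 250.2 and 251 in WT and 136 and 174 in dbTg. Smooth muscle (5 tested) and nerve and Schwann cell markers (2 tested) had 0 past the threshold and medians of 0.15 and -0.23, and the smooth muscle markers went both ways. The 18 muscle fibre markers had 0 past the threshold, 12 negative differences, and sums of 22222 and 21736 in WT and 22201 and 19973 in dbTg. Their median difference was -0.05, beside the members' -0.29. Before adjustment, 2 of the 18 (11.1%) were lower at a limma p under 0.05 (Pygm at -0.43 and Myom1 at -0.40). In the other direction 1 was higher (Des at 0.41). Both dbTg arrays lay below both WT arrays for 27.8% of them and above for 16.7%, beside 16.3% and 33.7% of all tested genes. RMA values have no true 0, so no marker can be called absent. In a bulk sample fewer fibres and less RNA per fibre cannot be told apart, and the part of these cell types in the members' values was not tested.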

How the data were processed

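The samples were 4 arrays, 2 WT and 2 dbTg, grouped by the titles in the labels. The deposited values are log2 RMA expression values that the authors made with Affymetrix Expression Console (RMA-sketch), per the labels. RMA corrects the background, normalizes by quantiles and summarises probes, which compresses differences of dim probe sets. The labels name neither the software version nor a genome build. Of 41345 probe sets, 23521 had 1 gene symbol in the platform annotation, 1814 several and 16010 none, and symbols were updated to RefSeq's through Entrez identifiers. Each gene was its brightest probe set by the mean of the 4 arrays. Those reaching the 40th percentile of that mean (1.48) were tested with limma 3.58.1 in R 4.3.3 (lmFit, eBayes with trend, two-sided, Benjamini-Hochberg over 13308 genes, threshold 0.05; 2 residual and 4.76 prior degrees of freedom). The fit was tested on simulated data with spreads drawn from limma's own prior. The changes put into them were larger than any member's difference, so recovery of differences of the members' size was not tested. The number of arrays limits the precision; nothing in the labels says that samples of a group are technical repeats, and each is a mouse of another sex.

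The members and gene lists were chosen with earlier results of these data known. Named genes are the 10 members, from each of 4 pathway lists up to 4 genes past the threshold or else the 2 with the smallest p, Bin1, Mtm1, Dnm2 and Ilf2; other genes named were chosen after their values were seen. Cell type markers were a fixed list. Alternatives were leaving out each array, a replicate block, median, quantile and fibre-list scaling, other filters, other probe set rules and other eBayes settings. Promoter motifs were counted with Python 3.11.15.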

Additional observations from a re-analysis of the deposited data

Results flagged for a closer look

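Among the 10 triad genes, 2 had opposite signs in the male and the female pair, and this difference was not tested, since each pair holds 1 mouse per genotype. Cacng1 was at -0.06 in the male pair and 1.30 in the female pair, with WT 2 as the low array. Jph2 was at 0.20 in the male pair and -1.04 in the female pair, with dbTg 2 as the low array. No group has the 4 arrays needed to test for a sample that stands apart.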

How the results depend on the processing

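The 10 triad genes kept their directions under all 14 other settings except Cacng1, which ran from -0.11 (without WT replicate 2) to 1.35 (without WT replicate 1), and Jph2, which ran from -1.04 (without dbTg replicate 1) to 0.20 (without dbTg replicate 2). Of the other named genes, Bin1 turned to -0.19 without WT replicate 2, -0.12 without dbTg replicate 1 and -0.028 when centred on the fibre list (0.30 without WT replicate 1), Mtm1 to -0.043 after quantile normalization, and Dnm2 to -0.057 without WT replicate 1 (0.48 without WT replicate 2). Members past the threshold numbered 0 in the reported fit, 1 (Ryr1) when centred on the fibre list, 1 (Ryr1) with the filter at the 60th percentile, which tests fewer genes, and 1 (Ryr1) at a threshold of 0.1. Leaving out 1 array gave 0 to 1 members past the threshold (Cacng1, without WT replicate 1), 1 to 5 members at an unadjusted p under 0.05, 5 to 7 negative differences, and a median of -0.38 to 0.035. The median was -0.11 in the male pair. A fit with 1 array left out also has a single sex in 1 group, so sex and genotype are not balanced in it. Over all genes, 294 passed the threshold, 4 to 766 when 1 array was left out, 127 after quantile normalization and 172 without an intensity filter. The other triad and T-tubule genes past the threshold numbered 1, 0 to 5 when 1 array was left out, and 0 after quantile normalization, without an intensity filter and without an eBayes trend. With the replicate number as a block, 65 genes, 0 members and 0 other triad and T-tubule genes passed. The number also marks the sex. The labels state no block, so the arrays were not taken as paired. Deviations of same-numbered arrays from their group means correlated at 0.05 across genes. With 2 arrays per group both pairs give that same value, so it cannot decide whether the arrays are paired. The causes of these changes were not tested.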
